A study of Mus musculus with 10 samples.

Results

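The septin family was examined in single Bergmann glia, the radial astroglia whose fibres span the molecular layer of the cerebellum. Expression of 10 listed members, Septin2 to Septin11, was read from 10 cells, 5 at postnatal day 30 (P30) and 5 at P6, each amplified on its own and hybridised to 1 Affymetrix Mouse Genome 430 2.0 array. The members were the complete probe sets that the array annotation gives to exactly 1 gene, that gene being a listed septin. This left 27 probe sets of 9 genes, out of 43608 complete probe sets and 17919 genes. Septin5 had none, because its probe set is shared with Gp1bb. The family was chosen by its measured differences between the ages, with results of these cells known, so those differences are a description and carry no test.

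Septins are GTP-binding proteins that assemble into heteromeric filaments and rings at the plasma membrane. They are known as scaffolds for the contractile ring in cytokinesis and as diffusion barriers at the base of cell processes. By sequence they fall into a SEPT2 group (here Septin2, Septin4 and Septin5), a SEPT6 group (Septin6, Septin8, Septin10 and Septin11), a SEPT7 group (Septin7 alone) and a SEPT3 group (Septin3 and Septin9). A filament unit is built from members of several groups, and Septin7 is the usual partner that the others need. Septin4 is abundant in astroglia and Bergmann glia, whereas Septin3 and Septin5 are known mainly from neurons.

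Both groups carried the GFAP-GFP reporter, in which a Gfap promoter drives GFP in astroglia, and came from the mid-sagittal portion of the cerebellum. They differed by age alone in the labels: the P30 cells were from young adult mice and the P6 cells from pups, a stage when Bergmann glia still guide migrating granule neurons. Cells were picked for GFP and for a bushy unipolar shape, and their amplified cDNA was screened by PCR and Southern blot. Septin4 was one of the glial markers in that screen, together with Gfap, Fabp7 and Slc1a3, so cells without detectable Septin4 would not have been hybridised. Absence of the neuronal markers Nefl and Mtap2 (Map2), and in some cases of tubulin beta-III (Tubb3), was also required. No animal is named for any cell, so each age was treated as 1 sample. The 5 cells of an age give its range and standard deviation (SD), and no p-value is given for any difference between the ages. A lower value in a cell can come from less transcript in that cell or from loss during amplification, and these cannot be told apart.

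The deposited values are ratios. Each array was scaled to its own median and each probe set was then divided by a median of its own, described in the study as that over all samples. A ratio near 1 is therefore near the divisor of that probe set and says nothing of how abundant the transcript was. The median over P6 cells was 1 for 19 of the 27 septin probe sets and for 69.6% of all complete probe sets, within a tolerance of 0.002. For those probe sets the divisor thus looks to have been the P6 median rather than that over all samples. Their P6 ratios near 1 partly follow from the division, which does not alter differences between the ages away from the floor. Levels were therefore compared between cells within a probe set, never between septins. Differences were taken on the log2 scale, P30 minus P6, and called when they passed 3-fold (1.58). The array median of P30 replicate 5 was 0.726, against 0.913 to 0.934 in the other P30 cells and 0.910 to 1 in the P6 cells. Ratios stop at 0.01 in the files, save for 10 zeros that were raised to the same value, and this floor took 1.73% of P30 values and 1.07% of P6 values.

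Septin9 was the septin with the largest difference between the ages: it was close to the floor in every P30 cell and near 1 in every P6 cell, at least 80.8-fold lower at P30. Septin2, Septin11 and Septin3 were also over 3-fold lower at P30 when their probe sets were averaged, by 7.97, 3.87 and 3.21-fold. Septin8 was 2.39-fold higher at P30, Septin10 1.34-fold higher and Septin4 1.15-fold higher. Septin6 was 1.55-fold lower and Septin7 1.51-fold lower. The septin genes over 3-fold lower thus numbered 4 of 9, beside a background of 9.39% of all genes on the array, and none was over 3-fold higher, beside 4.93% of all genes. The count of 4 was 3 under several settings. Septin3 fell short with arrays divided by their medians (-1.53), with arithmetic means (-0.72), and without P30 replicate 1 (-1.41), 2 (-1.55) or 3 (-1.30) or P6 replicate 4 (-1.39). Septin11 fell short with a floor of 0.1 (-1.34) and without probe sets ending in _x_at or _s_at (-1.09). Septin2 fell short without probe sets that had more than 5 cells at the floor (-0.74). Septin8 passed 3-fold higher when medians of cells were compared (1.79) and without P6 replicate 2 (1.86).

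Counted by probe set, 8 of 27 (29.6%) were over 3-fold lower at P30, beside 11.1% of all complete probe sets, and 3 were over 3-fold higher, beside 6.6%. The median difference over the septin probe sets was -0.62, and over all complete probe sets -0.01. In 1 septin probe set every P30 cell lay below every P6 cell (background 1.79%), and in 0 every P30 cell lay above (background 1.2%). By direction alone 16 were lower at P30 and 11 higher, where 50.6% of all probe sets were lower. Since the family was chosen with these differences known, nothing is read from these counts beyond their description.

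**Figure D1:**
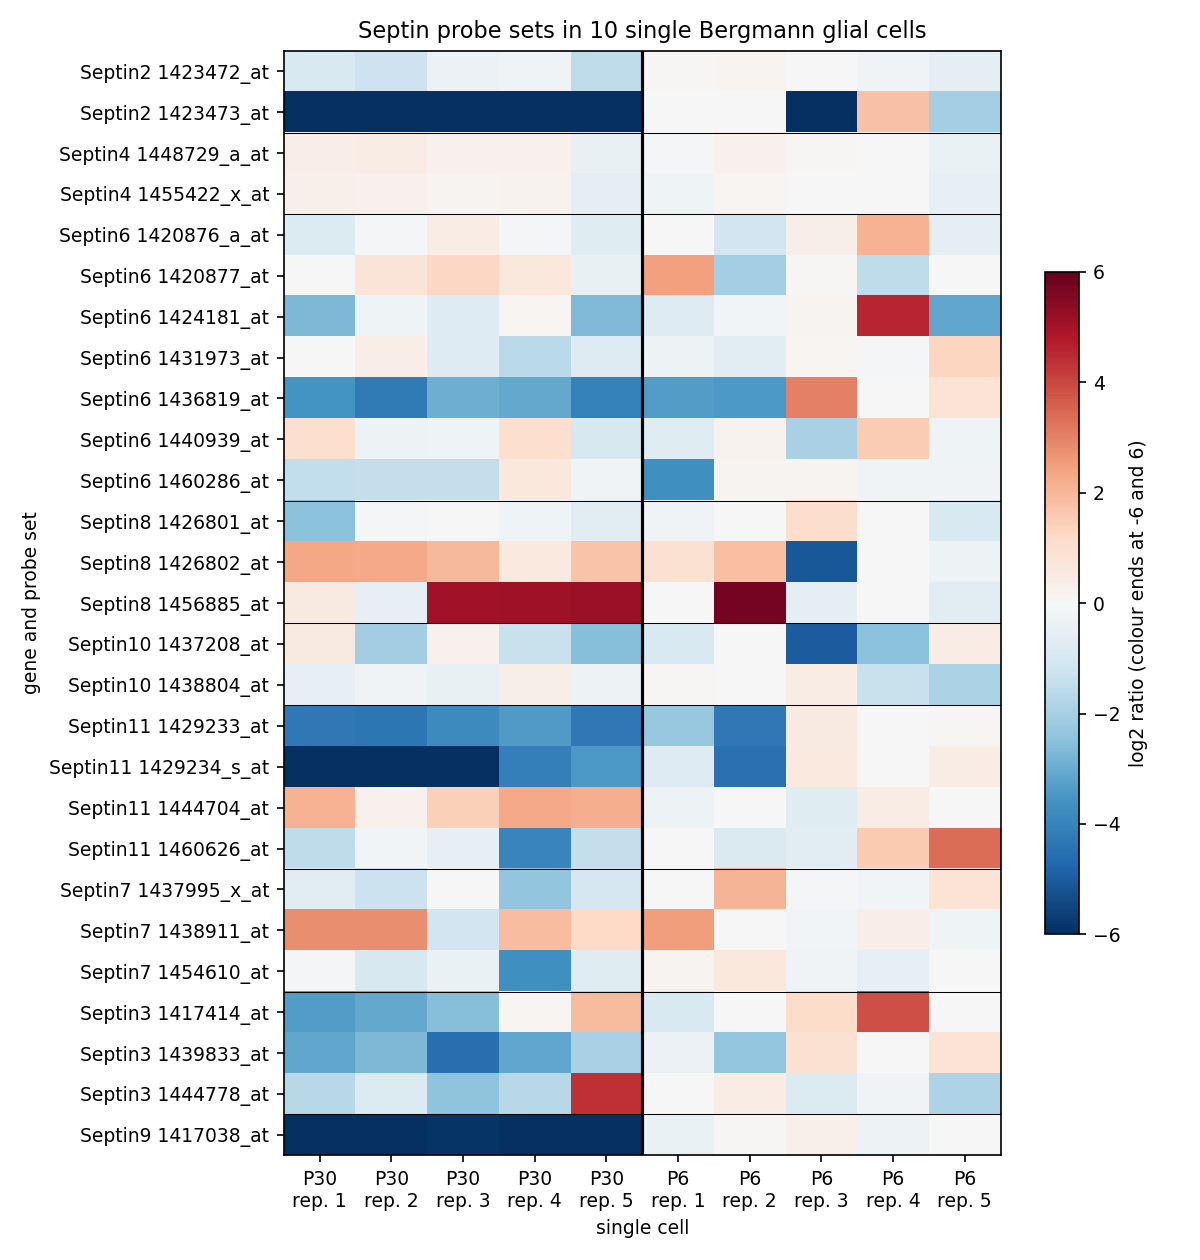
Log2 ratio of each of the 27 septin probe sets (rows, grouped by gene) in each single cell (columns, 5 P30 cells left of the line and 5 P6 cells right of it); blue is below and red above a ratio of 1, and colours end at -6 and 6. Septin9 was dark blue in all 5 P30 cells and near white in all 5 P6 cells, while the 2 Septin4 rows were near white throughout.

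The grouping of septins by sequence did not line up with a single direction. In the SEPT3 group 3 of 4 probe sets were over 3-fold lower at P30, with a median difference of -2.55. The 16 probe sets of the SEPT6 group held both calls, 4 lower and 3 higher, and ran from -4.54 to 2.29. In the SEPT2 group 1 of 4 was over 3-fold lower, and in the SEPT7 group 0 of 3. Of all complete probe sets, 11.1% were over 3-fold lower and 6.6% higher. Groups of 3 or 4 probe sets are too small to be set against these shares. The probe sets closest to the 3-fold line were Septin11 1444704_at (3.40-fold higher) and Septin8 1456885_at (4.47-fold higher) on the inside, and Septin7 1437995_x_at (2.99-fold lower) and Septin6 1424181_at (2.63-fold lower) on the outside.

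**Figure D2:**
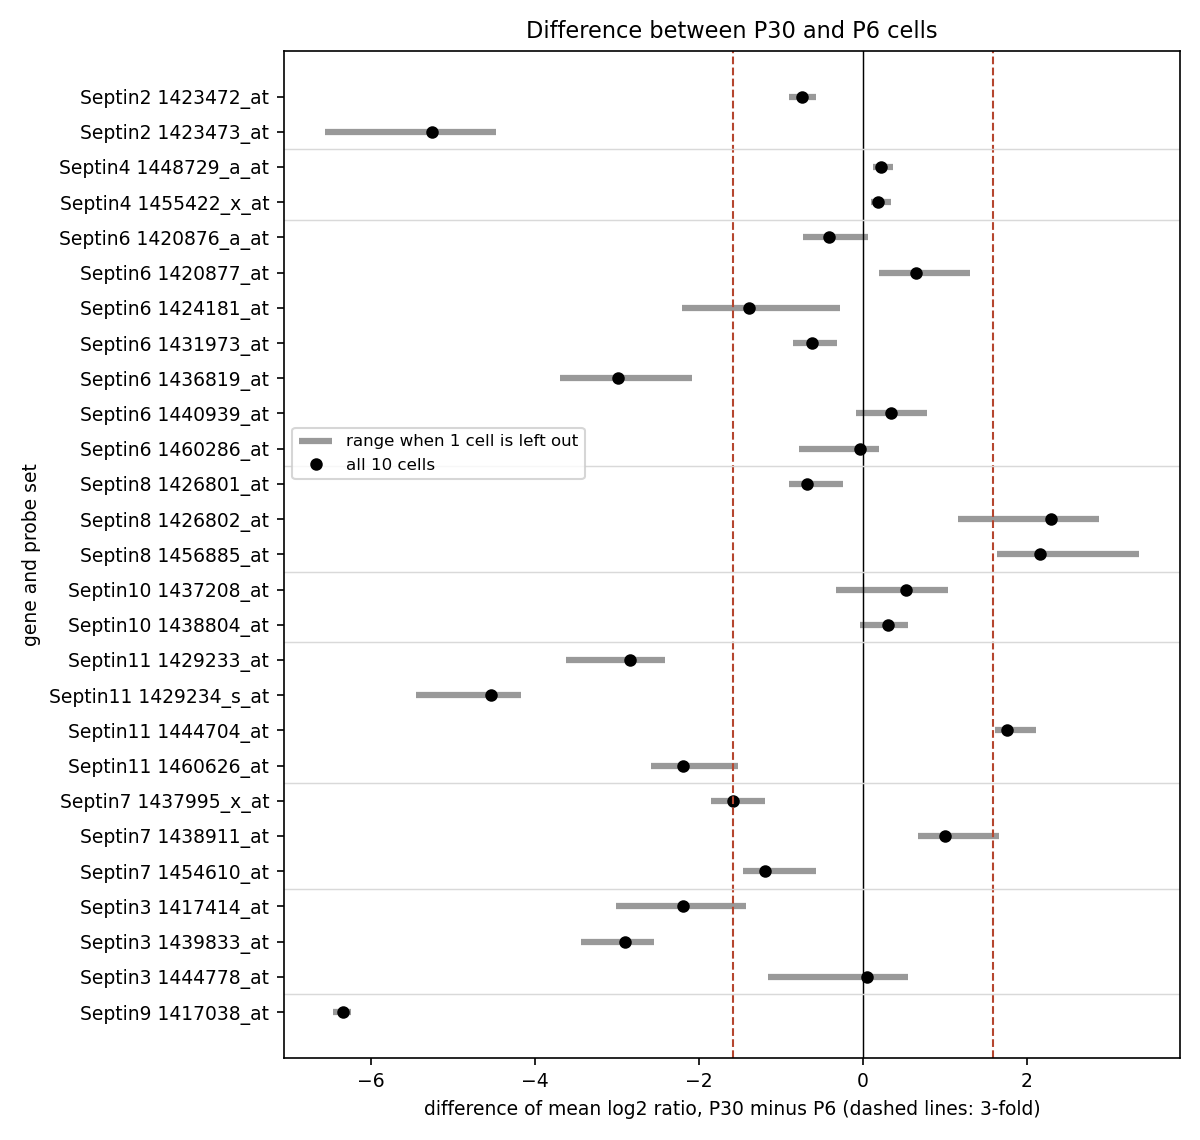
Difference of mean log2 ratio, P30 minus P6, for each septin probe set; the point is the value over all 10 cells, the grey bar runs over the values with 1 cell left out, and dashed lines mark 3-fold. The whole bar of Septin9 lies near -6, that of Septin2 1423473_at is among the widest, and those of both Septin4 probe sets stay close to 0.

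Promoter windows of 4 septins are shown to set the sequence beside the extremes of the measurements: Septin9, Septin2 and Septin11, with the lowest probe sets at P30, and Septin4, whose gene average differed least between the ages. Each is the RefSeq window of 300 bases (250 before to 50 after a transcription start, GRCm38.p6), and where a gene has several starts the one with most CpG was taken. Windows were given for 7 of the 10 septin genes, 16 in all; Septin3, Septin5 and Septin6 had none. Lower case is the plain sequence, and capitals mark GC boxes (GGGCGG) and E-boxes (CACGTG), each searched on both strands, so that a GC box on the other strand reads CCGCCC.
Septin9 (chr11:117199411-117199710, plus strand): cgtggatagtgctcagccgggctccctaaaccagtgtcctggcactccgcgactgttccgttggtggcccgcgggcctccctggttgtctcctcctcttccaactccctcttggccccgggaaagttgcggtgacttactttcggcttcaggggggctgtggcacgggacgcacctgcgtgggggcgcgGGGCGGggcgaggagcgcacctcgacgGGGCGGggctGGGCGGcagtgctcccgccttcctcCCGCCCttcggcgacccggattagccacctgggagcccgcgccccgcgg
Septin2 (chr1:93478811-93479110, plus strand): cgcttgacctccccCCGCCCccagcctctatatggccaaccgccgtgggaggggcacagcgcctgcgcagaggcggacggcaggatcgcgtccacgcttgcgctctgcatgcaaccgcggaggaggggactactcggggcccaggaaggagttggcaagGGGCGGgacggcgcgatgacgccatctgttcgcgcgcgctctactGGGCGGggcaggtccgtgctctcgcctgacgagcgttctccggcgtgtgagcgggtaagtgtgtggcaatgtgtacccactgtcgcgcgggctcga
Septin11 (chr5:93093166-93093465, plus strand): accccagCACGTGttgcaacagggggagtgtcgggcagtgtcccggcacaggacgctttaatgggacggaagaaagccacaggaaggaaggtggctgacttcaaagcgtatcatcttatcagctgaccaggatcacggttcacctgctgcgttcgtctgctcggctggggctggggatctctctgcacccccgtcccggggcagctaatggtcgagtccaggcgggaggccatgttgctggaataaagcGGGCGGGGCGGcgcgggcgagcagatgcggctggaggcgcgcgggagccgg
Septin4 (chr11:87578170-87578469, plus strand): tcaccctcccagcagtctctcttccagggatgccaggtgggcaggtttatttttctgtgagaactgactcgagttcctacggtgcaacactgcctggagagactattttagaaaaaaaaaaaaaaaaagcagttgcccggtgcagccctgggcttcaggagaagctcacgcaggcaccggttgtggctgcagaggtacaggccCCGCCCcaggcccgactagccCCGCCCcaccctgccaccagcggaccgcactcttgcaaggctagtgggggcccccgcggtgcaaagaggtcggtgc
The Septin9 window holds 4 GC boxes and 31 CpG. That of Septin2 holds 3 and 36, that of Septin11 holds 2, which overlap, and 25, and that of Septin4 holds 2 and 13. The median window in the RefSeq table has 7 CpG, and 35.7% of its 32851 windows hold a GC box. As the windows printed are those with most CpG, they say nothing of the other starts: other windows of Septin4 hold 1, 5 and 11 CpG and those of Septin9 5, 15 and 18. The E-box was found only in the Septin11 window of these 4, and in 7.15% of all windows. TATAAA (13.6% of windows) and CCAAT (37.4%) were searched in the same way on both strands and were in none of the 4. These matches describe letters in the windows and are not evidence of binding.

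Septin9, a SEPT3 group member needed for the last step of cytokinesis in cultured human cells, lies on chromosome 11. Its probe set 1417038_at read 0.01, 0.0123, 0.0168, 0.0111 and 0.01 in P30 replicates 1 to 5, against 0.756, 1.05, 1.24, 0.802 and 1 in P6 replicates 1 to 5. The highest P30 cell was thus far below the lowest P6 cell, and replicates 1 and 5 at P30 were at the floor. Mean log2 ratio was -6.40 ± 0.31 at P30 and -0.07 ± 0.29 at P6 (SD over 5 cells each), a difference of -6.34. Because some P30 cells were at the floor, 80.8-fold is a lower bound. The floor also limits the spread among P30 cells, so their SD says little of how alike they were. After division of each array by its median, the difference was -6.18 (72.4-fold) and the cells still did not overlap. Septin9 was read by this 1 probe set alone. The study also lists Septin9 among its age-regulated genes from these same cells, which is therefore no independent evidence.

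Septin2, a core filament subunit present in most tissues, was measured by a pair of probe sets that differed in size of change. Probe set 1423473_at was at the floor of 0.01 in all 5 P30 cells, against 0.998, 1.00, 0.01, 3.34 and 0.241 in P6 replicates 1 to 5. All P30 cells and P6 replicate 3 were therefore indistinguishable, and 4 of 5 P6 cells were higher. The difference was -5.25 (38.1-fold lower at P30), which is not a bound since both ages had cells at the floor. It was 94.7-fold without P6 replicate 3 and 22.2-fold without P6 replicate 4.

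Septin2 1423472_at read 0.539, 0.425, 0.776, 0.864 and 0.348 at P30, against 1.06, 1.11, 1, 0.868 and 0.669 at P6. Here the ages overlapped and the difference was -0.74 (1.66-fold lower), with SDs of 0.56 and 0.30. Both probe sets were lower at P30, but over the 10 cells they followed each other with r = 0.539 and, once each age was centred on its own mean, r = 0.009. Averaged per cell, Septin2 was lower in every P30 cell than in every P6 cell. Septin2's separation was narrow and was lost after division by the array medians. No overlap held for 2 of 9 septin genes, Septin2 and Septin9, beside 2.13% of all genes, and for 0 in the other direction, beside 1.41%. Without the probe set that was mostly at the floor, the gene's difference was -0.74, so the 7.97-fold of the gene average rests on 1423473_at.

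Septin4, the septin known from Bergmann glia, kept ratios between 0.675 and 1.35 in all 10 cells. Probe set 1448729_a_at read 1.30, 1.35, 1.19, 1.18 and 0.745 at P30, against 0.920, 1.20, 1.05, 1 and 0.748 at P6. Probe set 1455422_x_at read 1.22, 1.20, 1.12, 1.15 and 0.675 at P30, against 0.841, 1.08, 1.03, 1 and 0.708 at P6. In both, replicate 5 was the lowest cell at either age, and the ages overlapped.

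The Septin4 differences were 0.22 and 0.19 (1.16 and 1.14-fold higher at P30), smaller than the pooled spread of the cells. The pair followed each other closely, with r = 0.984 over the 10 cells and 0.983 within ages. Replicate 5 at P30 was also the array with the lowest median, and after division by the array medians it read 1.03, nearer the 1.29 to 1.44 of the other P30 cells, with P6 cells at 0.822 to 1.20 (1448729_a_at). The gene's difference was then 0.36. With arrays scaled to the hybridisation spikes it was -0.07, so its sign depends on the scaling; those scalings move the median of all probe sets to 0.14 and -0.29. As Septin4 was a marker in the screen of the cDNAs, its presence in every cell was partly a condition of entry.

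**Figure D3:**
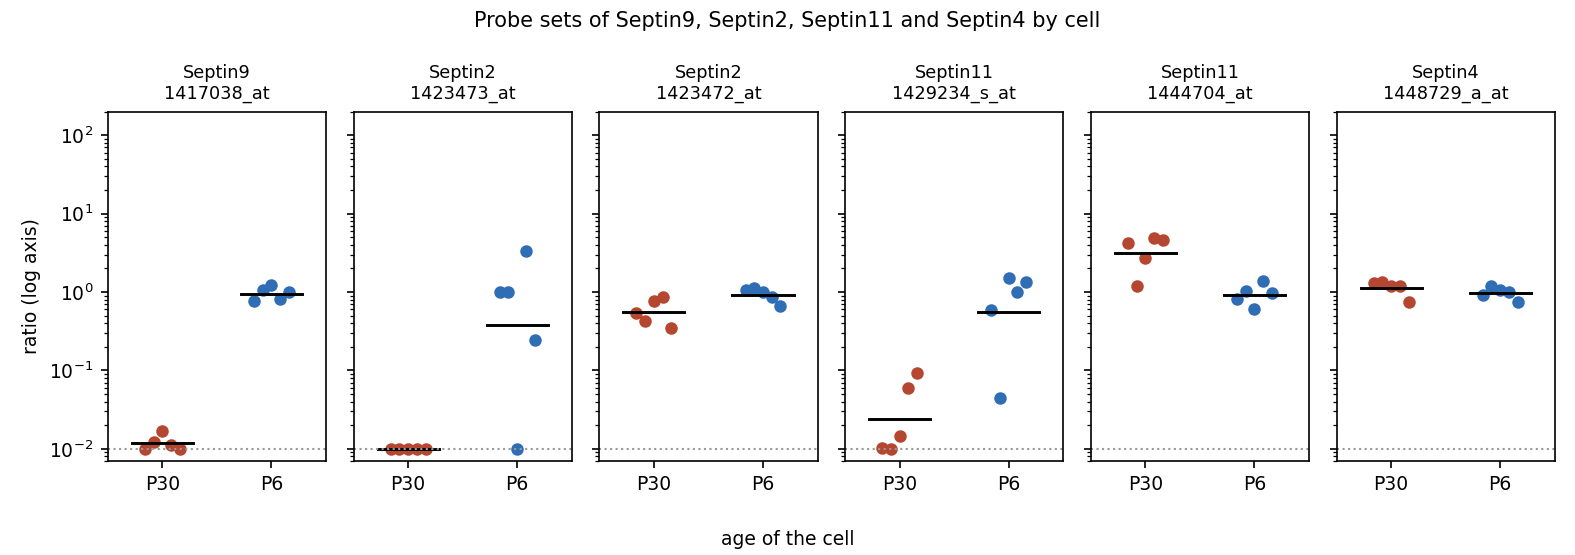
Ratios (log axis) of 6 septin probe sets in single cells, P30 in red left of P6 in blue; each point is a cell, the bar is the geometric mean of 5 cells, and the dotted line is the floor of 0.01. The Septin9 ages are far apart, Septin2 1423473_at has 1 P6 cell on the floor with the P30 cells, Septin11 shows opposite differences by probe set, and Septin4 cells overlap around 1.

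Septin11, a SEPT6 group subunit also found at dendritic spines in neurons, had 4 probe sets that did not move one way. Probe set 1429234_s_at read 0.0102, 0.01, 0.0145, 0.0592 and 0.0914 at P30, against 0.586, 0.0446, 1.52, 1 and 1.36 at P6. Only P6 replicate 2 fell within the P30 range. The difference was -4.54 (at least 23.2-fold lower at P30, since a P30 cell was at the floor), and at least 43.7-fold without that cell. Septin11 1429233_at read 0.0513, 0.0494, 0.0698, 0.0949 and 0.0507 at P30, against 0.208, 0.0514, 1.47, 1 and 1.04 at P6. Again P6 replicate 2 alone lay among the P30 cells, so that the 7.18-fold lower mean became 12.3-fold without it.

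The remaining Septin11 probe sets differed from these and from each other. Septin11 1460626_at read 0.349, 0.887, 0.708, 0.0643 and 0.366 at P30, against 1, 0.545, 0.639, 2.94 and 10.3 at P6, a 4.59-fold lower mean with overlapping cells. Leaving out P6 replicate 5, its highest cell, brought it to 2.88-fold, below the 3-fold line, and leaving out P30 replicate 4 to 3.01-fold. Septin11 1444704_at went the other way: it read 4.20, 1.19, 2.69, 4.86 and 4.59 at P30, against 0.809, 1.02, 0.598, 1.37 and 0.977 at P6, 3.40-fold higher. There, 4 of 5 P30 cells lay above every P6 cell. Correlations between Septin11 probe sets ran from -0.607 to 0.911 over 6 pairs, and which transcripts each probe set reads was not examined. Without probe sets marked _s_at or _x_at by the array's maker, which can match several transcripts, the gene's difference was -1.09 in place of -1.95.

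Septin6, on the X chromosome and a partner of Septin2 and Septin7 in the best known filament, had 7 probe sets of which only 1 passed 3-fold. Probe set 1436819_at read 0.0832, 0.0531, 0.131, 0.120 and 0.0593 at P30, against 0.0974, 0.0926, 8.02, 1 and 1.76 at P6. The P6 cells thus fell into a low pair, replicates 1 and 2, within the P30 range, and 3 cells above it. Its mean was 7.90-fold lower at P30, 12.8-fold without P6 replicate 1, 12.9-fold without P6 replicate 2 and 4.24-fold without P6 replicate 3.

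The other Septin6 probe sets ran from -1.39 to 0.65 on the log2 scale, and all overlapped between ages. At the lower end, 1424181_at read 23.9 in P6 replicate 4 and 0.116 to 1.11 in the other P6 cells, against 0.155 to 1.07 at P30; its difference was 1.22-fold without that cell, and 3.07 to 4.61-fold without any 1 of P30 replicates 2 and 4 and P6 replicates 1 and 5. The sign of 1420876_a_at, 1440939_at and 1460286_at changed with single cells left out, and their differences of -0.41, 0.34 and -0.04 were below the pooled spread. Over 21 pairs, Septin6 probe sets correlated from -0.712 to 0.836.

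Septin8, which can take the place of Septin6 in filaments, was the only septin with more than 1 probe set over 3-fold higher at P30. Probe set 1426802_at read 5.01, 4.78, 3.85, 1.49 and 3.26 at P30, against 1.87, 3.52, 0.0296, 1 and 0.806 at P6. Most P30 cells were above most P6 cells, but the 4.91-fold higher mean leaned on P6 replicate 3: without it the value was 2.23-fold, and without P6 replicate 2 it was 7.37-fold.

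Septin8 1456885_at read 1.44, 0.709, 32.9, 34.2 and 35.8 at P30, against 1, 53.5, 0.677, 1.03 and 0.615 at P6. Cells fell either at 0.615 to 1.44 or at 32.9 to 53.5, with 3 P30 cells and 1 P6 cell in the high set. The 4.47-fold higher mean was 6.94-fold without P30 replicate 1, 8.29-fold without P30 replicate 2 and 10.3-fold without P6 replicate 2. The remaining probe set, 1426801_at, was 1.60-fold lower at P30, so the gene's 2.39-fold averages opposite directions.

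Septin10, another SEPT6 group subunit, had differences of 0.53 (1437208_at) and 0.31 (1438804_at). Both changed sign without 1 P6 cell, to -0.32 without replicate 3 and to -0.04 without replicate 5, and neither separated the ages. Septin10 probe sets correlated at -0.398 over the 10 cells.

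Septin7, the subunit on which most filaments depend, stayed under 3-fold in all 3 probe sets. Probe set 1437995_x_at read 0.619, 0.413, 1.02, 0.195 and 0.503 at P30, against 1, 4.13, 0.950, 0.892 and 1.74 at P6, a difference of -1.58 (2.99-fold lower). It lay just short of the line, and over it without any of P30 replicates 1, 3 and 5 or P6 replicates 1, 3 and 4 (3.02 to 3.61-fold). Septin7 1454610_at read 0.943, 0.517, 0.759, 0.0778 and 0.596 at P30, against 1.12, 1.54, 0.865, 0.716 and 1 at P6, a difference of -1.19 (2.29-fold lower). These 2 probe sets followed each other (r = 0.830), and P30 replicate 4 was the lowest cell in both. Septin7 1438911_at was 2.00-fold higher at P30, with cells from 0.449 to 6.96 at P30 and from 0.825 to 5.71 at P6; it was 3.17-fold higher without P30 replicate 3.

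Septin3, a neuronal septin found at synaptic vesicles, was lower at P30 in 2 of its 3 probe sets. Probe set 1439833_at read 0.115, 0.155, 0.0430, 0.115 and 0.258 at P30, against 0.796, 0.203, 1.88, 1 and 1.78 at P6, a 7.50-fold lower mean. Only P6 replicate 2 and P30 replicate 5 overlapped. Septin3 1417414_at read 0.0988, 0.120, 0.168, 1.10 and 3.69 at P30, against 0.526, 0.972, 2.15, 14.6 and 1 at P6, a 4.56-fold lower mean that was 8.05-fold without P30 replicate 5 and 2.68-fold without P6 replicate 4. Here P30 replicates 4 and 5 lay among the P6 cells. Septin3 1444778_at differed by 0.05: it read 20.8 in P30 replicate 5, 0.185 to 0.574 in the other P30 cells, and 0.273 to 1.35 at P6. Without that cell the difference was -1.16, 2.23-fold lower.

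Markers of other cells moved in some of these cells too. In P30 replicate 5 the median deviation from the middle of the other P30 cells was 3.30 log2 units over 6 measured Purkinje neuron genes (4 of them above), 1.63 over 9 endothelial and pericyte genes (9 above) and 0.78 over 12 general neuronal genes (8 above). In P6 replicate 5, the general neuronal genes deviated by 2.47 (9 of 12 above). Septin3 read 0.273 in that cell for 1444778_at, the lowest of the P6 cells, 1 for 1417414_at and 1.78 for 1439833_at. The medians of the general neuronal list ran from -1.29 to -0.29 in P30 cells and from -0.91 to 0.52 in P6 cells. Of its 12 genes, 2 were over 3-fold lower at P30, beside 9.39% of all genes, and 0 higher, beside 4.93%. Absence of Nefl and Map2, and in some cases of Tubb3, had been a condition in the screen of the cDNAs. The list's median difference was -0.20, and 0.06 without P6 replicate 5. Its genes went both ways, Rbfox3 being 2.59-fold higher. Gap43 was 6.07-fold lower at P30, with no overlap of cells (as in 2.13% of all genes), and 3.76-fold lower without P6 replicate 5. Syt1, 1.88-fold lower, also had every P30 cell below every P6 cell. Nefm was 3.36-fold lower through that 1 cell, and 1.23-fold lower without it. The part of these markers in the Septin3 values was not tested. An exclusion made after the values were seen left out P30 replicates 4 and 5 and P6 replicate 5. Septin3's difference was then -2.83 in place of -1.68, and Septin9's -6.21. P30 replicates 4 and 5 had the highest Septin3 averages of the P30 cells (-1.55 and 1.44 on the log2 scale). Leaving them out had to enlarge Septin3's difference, so nothing is read from it. Because ratios carry no level, the presence of astroglial markers could not be read from them. Of 12 astroglial genes measured, 0 were over 3-fold lower at P30, beside 9.39% of all genes, and 2 higher, beside 4.93%. The 2 were the gap junction gene Gja1 (9.02-fold) and the glycolytic gene Aldoc (8.80-fold).

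**Figure D4:**
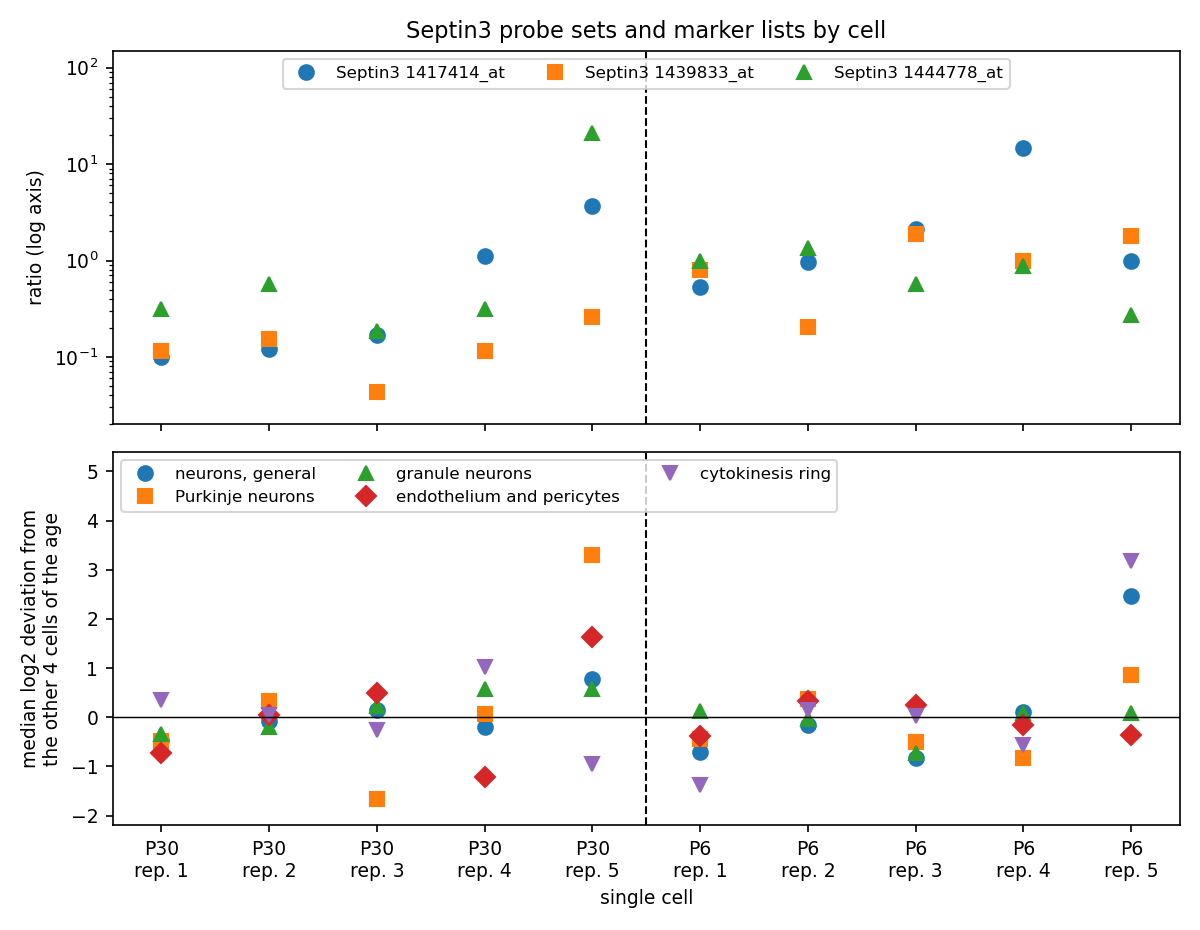
Upper panel: ratios (log axis) of the 3 Septin3 probe sets in each cell, P30 left of the dashed line and P6 right of it. Lower panel: median log2 deviation of each marker list from the other 4 cells of the same age. Septin3 1444778_at stands at 20.8 in P30 replicate 5, the cell in which Purkinje neuron genes deviate by 3.30, and the cytokinesis genes deviate by 3.18 in P6 replicate 5. General neuronal genes deviate most in P6 replicate 5 (2.47), where Septin3 1444778_at stands at 0.273, the lowest of the P6 cells.

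For the 11 septin probe sets over 3-fold and the 2 of Septin4, the 3 closest genes were found by Pearson correlation of log2 ratios over the 10 cells, among 33275 probe sets of other single genes; all points share their array, and where the ages differ the split itself raises r. Septin9 was followed most closely by Rpl13a (r = 0.986), Mn1 (0.986) and Rps28 (0.985), which were 42.0 to 67.9-fold lower at P30. Septin4 was followed by Vim (0.995), Lxn (0.995) and Gpr37l1 (0.994) in one probe set and by Scd2, Marcksl1 and Mfge8 (0.992 to 0.993) in the other. Vimentin and Gpr37l1 are astroglial genes, and all 6 differed between the ages by 1.12 to 1.18-fold. Both Septin4 probe sets were lowest in replicate 5 of each age, the arrays with the lowest medians of their ages (0.726 and 0.910). The part of array scale in these correlations was not tested. For Septin3 1439833_at, the closest were Gpc1 (0.961) and the replication licensing genes Mcm4 (0.960) and Mcm7 (0.951). For Septin3 1417414_at, the closest were others, Man2c1os (0.932), Nol11 (0.906) and Onecut3 (0.903). Those of Septin6 1436819_at were Bclaf3 (0.961), the primase gene Prim1 (0.951) and Donson (0.951), which acts at replication forks. The closest to Septin11 were Nxn for 1429233_at (0.989), Ccser2 for 1429234_s_at (0.970), Trim17 for 1444704_at (0.963) and Tbl2 for 1460626_at (0.950). For Septin2 1423473_at it was Eif2ak4 (0.978), for Septin8 1426802_at it was Ctsl (0.970), and for Septin8 1456885_at it was Fam240b (0.958). Correlations this high among so many candidates are a description of these 10 cells.

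Borg proteins are effectors of the GTPase Cdc42 that bind septins and organise their filaments, and Cdc42ep4 is known to sit with septins in Bergmann glial processes beside the glutamate transporter Slc1a3 (GLAST). All 5 were measured: 2 were over 3-fold higher at P30, beside 4.93% of all genes, and 0 lower, beside 9.39%. The other 3 were within 1.05-fold. Cdc42ep4 1416511_a_at read 8.37, 12.2, 15.4, 10.5 and 8.06 at P30, against 0.164, 0.533, 1, 3.85 and 1.93 at P6, 11.5-fold higher (7.50-fold without P6 replicate 1). Cdc42ep4 1436801_x_at read 4.58, 5.92, 6.55, 5.51 and 3.62 at P30, against 0.180, 0.505, 1, 2.19 and 1.18 at P6, 6.84-fold higher. In both probe sets every P30 cell lay above every P6 cell, as in 1.2% of all probe sets.

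Cdc42ep1 1424376_at read 10.03, 9.02, 2.45, 11.1 and 3.40 at P30, against 1.73, 0.323, 0.432, 1 and 1.49 at P6, 7.47-fold higher and again with no overlap. The other Cdc42ep1 probe set, 1442512_at, was 2.07-fold higher with overlapping cells. As gene averages, Cdc42ep4 and Cdc42ep1 were thus higher at P30, and Septin9, Septin2, Septin11 and Septin3 lower. Any link between them was not tested. Slc1a3 was 1.66-fold higher at P30 over its probe sets, but these ranged from 18.8-fold higher (1426341_at, 34.6-fold without P6 replicate 5) to 2.41-fold lower (1440491_at).

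**Figure D5:**
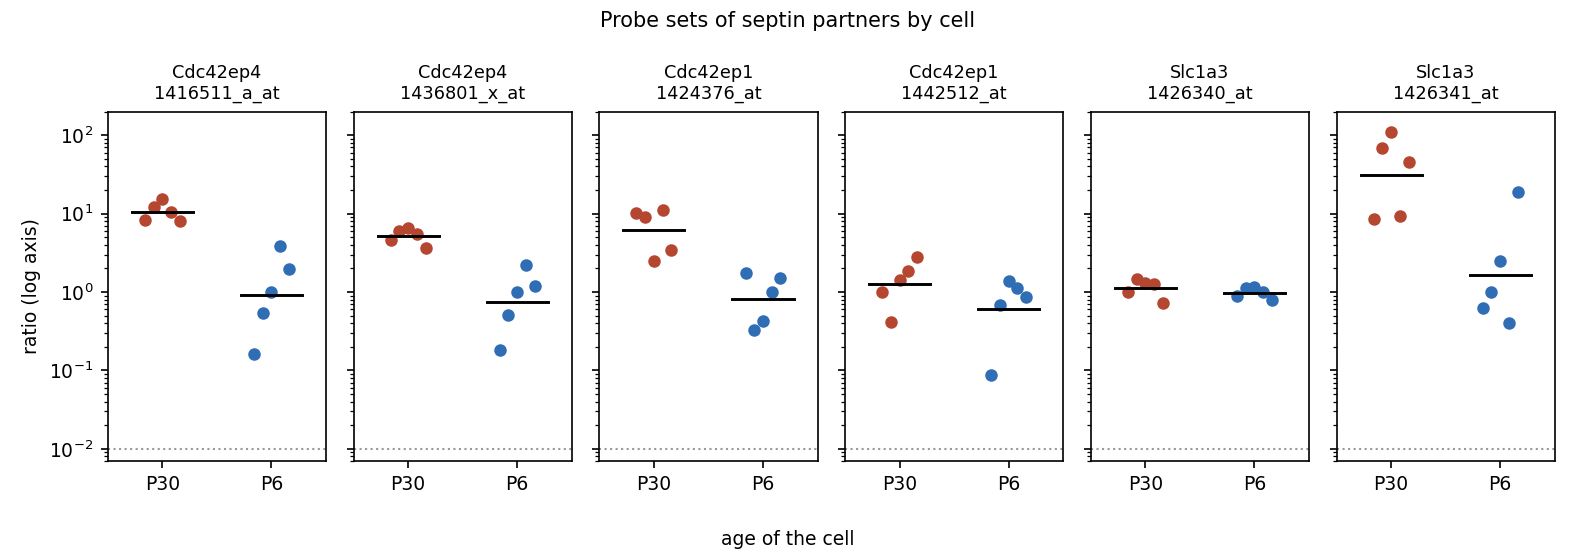
Ratios (log axis) of probe sets of the Borg genes Cdc42ep4 and Cdc42ep1 and of the transporter Slc1a3 in single cells, P30 in red left of P6 in blue; each point is a cell and the bar is the geometric mean of 5 cells. Every P30 cell is above every P6 cell for both Cdc42ep4 probe sets and for Cdc42ep1 1424376_at, whereas Slc1a3 1426340_at is near 1 at both ages.

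Of 10 measured septin binding partners out of 12 listed, 0 passed 3-fold in either direction, beside 9.39% of all genes lower and 4.93% higher. The list's median difference was 0.34, beside -0.05 over all genes. The largest were Myh9 (2.44-fold higher at P30), a nonmuscle myosin heavy chain that binds septins, and Arhgef18 (2.09-fold higher), an exchange factor for RhoA. The 8 genes of the cytokinesis ring, in which septins act, had a median difference of -0.61, which turned to 0.47 without P6 replicate 5. Ect2, the exchange factor that starts the ring, was at least 10.6-fold lower at P30 (18.5-fold without P6 replicate 4), 1 P30 cell being at the floor. The kinase gene Aurkb was 4.99-fold lower, but 2.37-fold without P6 replicate 5, 8.93-fold without P6 replicate 1 and 8.09-fold without P6 replicate 3. P6 replicate 5 was above the median of the other P6 cells in 8 of these 8 genes, by a median of 3.18 log2 units. Its Septin9 ratio was 1, with 0.756 to 1.24 in the other P6 cells. Any link between Septin9 and these genes was not tested.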

How the data were processed

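Single Bergmann glial cells, 5 at P30 and 5 at P6, were amplified by RT-PCR and each was hybridised to 1 array. The authors processed the arrays with RMA in GeneSpring GX 7.3: they raised anything below 0.01 to that floor, scaled every array by the 50th percentile of its values, and then related each probe set to a median of its own measurements. The deposited values are the resulting linear ratios, and the scanner values were not used here. Depth does not apply to arrays, and the number of cells limits the precision.

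Of 45101 probe sets, 1493 with a blank were left out, and 10 values of 0 were set to 0.01. Genes came from the array annotation (34958 probe sets with 1 gene, 932 with several), and names and promoter sequences from RefSeq (GRCm38.p6). Ratios were compared as differences of mean log2 ratio, P30 minus P6, so folds are ratios of geometric means; gene values average the log2 ratios of a gene's probe sets. No animal is named, so no test was run. Every septin was named, with all cells where a probe set passed 3-fold; of the partner lists, genes over 3-fold or else the 2 with the largest difference were named; for likeness, the 3 probe sets with the highest r were taken, leaving out those with over 2 cells at the floor. Members and lists were chosen with earlier results of these data known. Alternatives were other scalings, floors, averages, filters and probe set choices, besides dropping cells one at a time. Dropping cells for the partner and marker lists, and gene counts under each setting, were added after the values were seen. The calculations were tested on simulated data. Python 3.11.15, NumPy 2.4.6 and pandas 2.3.3 were used.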

Additional observations from a re-analysis of the deposited data

Results flagged for a closer look

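Each septin probe set at 1 age gave a set of 5 cells. In 8 of 53 sets the highest or lowest cell stood further from the rest than Dixon's 95% limit for 5 values (0.710) allows. That limit flags about 1 in 20 sets when values are independent and normally distributed. The sets here share their cells, and the share flagged among all probe sets was not computed. Whether 8 is more than is usual on these arrays was therefore not tested. Of the 8 flagged sets, 3 were in P30 replicate 5. Both Septin4 probe sets were low there, at 0.745 for 1448729_a_at (others 1.18 to 1.35) and 0.675 for 1455422_x_at (others 1.12 to 1.22), on the array with the lowest median, 0.726. Septin3 1444778_at was high in the same cell, at 20.8 (others 0.185 to 0.574). Septin7 1454610_at was low in P30 replicate 4, at 0.0778 (others 0.517 to 0.943).

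At P6, replicate 1 was low for Septin6 1460286_at, at 0.0769 (others 0.865 to 1.13), and high for Septin7 1438911_at, at 5.71 (others 0.825 to 1.32). In P6 replicate 2, Septin8 1456885_at was high, at 53.5 (others 0.615 to 1.03), and Septin11 1429234_s_at was low, at 0.0446 (others 0.586 to 1.52). In Septin11 1429234_s_at the ages overlapped through that cell alone.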

How the results depend on the processing

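Of 261 values recomputed under another setting, 243 stayed within the tolerance set for them and 18 moved. For a gene's difference the tolerance was the pooled spread of its cells, so values that stayed could still differ. Septin3 at -0.72 with arithmetic means, from -1.68, counted as staying. So did Septin4 at -0.07 with spike scaling, from 0.20, although its sign changed. Among gene differences 3 moved and 168 stayed. Among the counts of probe sets and their median difference, 15 moved and 75 stayed. With arrays scaled to the hybridisation spikes, every P30 cell lay below every P6 cell in 3 septin probe sets in place of 1, and the median difference over the septin probe sets was -0.89, while that of all probe sets shifted to -0.29. With a floor of 0.1, Septin2 differed by -1.67 and Septin9 by -3.25. Leaving out each cell in turn gave 8 to 10 probe sets over 3-fold lower at P30, 2 to 4 higher, 1 to 4 with every P30 cell below every P6 cell, 0 to 1 with every P30 cell above, and a median difference of -0.70 to -0.27; the 4 was without P6 replicate 2 and the -0.27 without P30 replicate 1. Without P30 replicates 4 and 5 and P6 replicate 5, chosen after the values were seen, the ages did not overlap in 5 probe sets lower and 2 higher at P30, where fewer cells make separation easier. The shares of all probe sets called or not overlapping were not computed under these other settings. Their counts therefore have no background beside them, and nothing is read from a rise or fall in them. No paired analysis was possible because nothing in the labels ties a P30 cell to the P6 cell of the same number; with 5 cells each, the mean difference within numbers equals the unpaired one. The septin genes over 3-fold lower numbered 3 or 4 in every setting run. Ratios near the floor are bounds only, and single cells from unnamed animals give no error for an age.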

Other observations

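Other septins on the array fell outside the members. Septin1 differed by 0.58, Septin12 by -0.09 and 0.38 in its 2 probe sets and Septin14 by 1.00 (P30 minus P6, log2). The probe set shared by Septin5 and Gp1bb, 1452357_at, read 4.95, 3.31, 3.92, 0.145 and 1.72 at P30, against 2.36, 0.147, 0.549, 1.96 and 1 at P6. Its cells overlapped, with a difference of 1.08, and which of both genes it reads is not settled by the annotation.

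Oligodendrocyte genes were measured for 11 of 12 listed, with 0 over 3-fold lower at P30 and 2 higher, the myelin genes Mbp (3.12-fold) and Cldn11 (4.03-fold). Over all genes on the array, the background for every list here, 9.39% were over 3-fold lower and 4.93% higher. Endothelial and pericyte genes had 2 of 9 over 3-fold higher at P30, Tek (4.54-fold) and Pdgfrb (3.98-fold), and of 6 Purkinje neuron genes Pvalb was 3.29-fold higher. All 5 of these genes fell under 3-fold without P30 replicate 5, to 2.13-fold for Mbp, 2.65-fold for Cldn11, 2.10-fold for Tek, 2.12-fold for Pdgfrb and 1.65-fold for Pvalb. Other single cells did the same for Cldn11 (P30 replicate 4, 1.68-fold, and P6 replicate 3), Pdgfrb (P30 replicate 2 and P6 replicate 4), Mbp (P30 replicates 1 and 4, P6 replicates 1, 2 and 4) and Pvalb (P30 replicate 1 and P6 replicates 1 to 4). Of 12 microglial genes, 0 passed 3-fold in either direction. The 9 granule neuron genes measured deviated by a median of 0.58 log2 units in both P30 replicate 4 and P30 replicate 5 from the other P30 cells.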
